A study of Mus musculus with 4 samples.

Results

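The S-phase and DNA replication genes examined here are 37 genes chosen by name, out of 32285 genes in the deposited tables, and all 37 were found. They were followed in 4 single-cell RNA sequencing libraries of C3H10T1/2 Clone 8 cells, a mouse mesenchymal progenitor line that can give muscle and fat cells. The cells carried a tagged histone H3.1 transgene, delivered by lentivirus, that was either wild type (H3WT) or had arginine 26 replaced by cysteine (H3R26C), so that both arms hold a transgene on top of the cell's own histone genes. Each genotype was treated with 5-Azacytidine (5-Aza), a cytidine analogue that is taken into nucleic acids and blocks DNA methyltransferases, or with its vehicle DMSO. Per the study's methods, the exposure to 5-Aza was 24 h at 3 µM, with collection on day 28. Whether the DMSO libraries were collected on the same day is not stated in the sources used here, which bears on each ratio of 5-Aza to DMSO. Each condition has 1 library, so no test between conditions was made, and every interval given is a 95% interval of counting error only, which leaves out the spread between cultures.

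Cells were kept if they held at least 5000 unique molecular identifiers (UMIs), at least 1500 genes and at most 20% mitochondrial UMIs. This left 3710 (DMSO) and 5993 (5-Aza) cells of H3WT and 4727 (DMSO) and 7619 (5-Aza) cells of H3R26C, with 84060490 to 110712425 UMIs per library. The kept cells were 59.5% (DMSO) and 39.9% (5-Aza) of the barcodes of H3WT and 72.3% (DMSO) and 62.9% (5-Aza) of those of H3R26C. The filter thus removed unequal parts of the libraries, and shares of cells under 5000 UMIs were not examined. The median depth per cell differed between libraries, at 22420 UMIs in H3WT DMSO, 13149 in H3WT 5-Aza, 16598 in H3R26C DMSO and 13123 in H3R26C 5-Aza. Pairs of libraries shared 24 to 58 barcodes, at most 1.11% of the smaller library. The 8 mesenchymal markers summed to 13860.1 to 14916 CPM (UMIs of the genes per 1000000 UMIs) in the 4 libraries, while 5 blood and 5 endothelial markers each summed to at most 12.0 CPM.

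Before a cell copies its DNA, the origin recognition complex, Cdc6 and Cdt1 load the Mcm2 to Mcm7 helicase onto origins, a step called licensing. In S phase Cdc45 and the GINS complex switch that helicase on, DNA polymerases copy both strands around the sliding clamp Pcna, and ribonucleotide reductase and thymidylate synthase supply the nucleotides. Many of these genes are transcribed together at the border of G1 and S by E2F factors, which the retinoblastoma proteins hold back in resting and differentiated cells. In skeletal muscle, withdrawal from the cell cycle goes with differentiation, and the CDK inhibitor Cdkn1a is among the genes known for it.

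The promoter sequences of the members are shown because E2F sites are the textbook feature of these genes. RefSeq promoter windows (GRCm38.p6, 250 bases before to 50 after the start site) were on hand for 27 of the 37 members, in 30 windows. They were searched on both strands for 4 forms of the E2F motif: TTTCCCGC, TTTGGCGC, TTTCGCGC and TTTGCCGC, which can overlap one another on opposite strands. At least 1 of these forms was in 11 of the 27 members (40.7%), namely Mcm3, Mcm5, Mcm6, Mcm7, Cdc6, Dtl, Pola1, Pold3, Clspn, Ubr7 and Cdca7, against 2.61% of all 27025 genes with a window. In Mcm3, Pold3, Clspn and Ubr7 no form lay wholly before the start site. For the other 7, the 44 bases around the match nearest the start site are printed in the direction of the gene, with the matched bases in capitals. The windows lie at chr1:128359727-128359770 (Mcm6, minus strand), chr1:191575545-191575588 (Dtl, minus), chr2:72476130-72476173 (Cdca7, plus), chr5:138172023-138172066 (Mcm7, minus), chr8:75109342-75109385 (Mcm5, plus), chr11:98907995-98908038 (Cdc6, plus) and chrX:93632268-93632311 (Pola1, minus).
Mcm5: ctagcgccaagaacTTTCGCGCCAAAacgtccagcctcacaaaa
Mcm6: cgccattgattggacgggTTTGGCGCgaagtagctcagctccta
Mcm7: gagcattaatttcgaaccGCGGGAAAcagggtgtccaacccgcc
Cdc6: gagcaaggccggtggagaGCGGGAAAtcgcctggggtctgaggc
Dtl: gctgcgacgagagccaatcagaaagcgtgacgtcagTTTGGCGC
Pola1: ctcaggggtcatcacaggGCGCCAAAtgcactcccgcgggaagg
Cdca7: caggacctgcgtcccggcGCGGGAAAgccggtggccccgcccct

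In Mcm5 a pair of matches on opposite strands overlapped, which made a run of 12 capitals out of the 44 bases. The CCAAT box (CCAAT) was in 70.4% of the members with a window and in 41.1% of all genes. The cell cycle homology region (TTTGAA), a motif of genes used in G2 and mitosis, was in 22.2% of the members and 20.2% of all genes. In a list of 54 G2 and mitosis (G2/M) genes the shares of these 2 motifs ran the other way, with an E2F form in 6.38% and TTTGAA in 70.2% of the 47 genes with a window. The CCAAT box did not, with 76.6% of these genes. In a list of 62 other replication genes, 52 had a window. An E2F form was in 32.7% of them, the CCAAT box in 50% and TTTGAA in 13.5%. A match of letters is not a binding site, and a window without one shows only that these letters are not in it.

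Summed over the 37 members, the level was 633.6 CPM (628.4 to 639.0) in H3WT DMSO, 671.5 (666.0 to 677.1) in H3WT 5-Aza, 874.6 (868.3 to 880.9) in H3R26C DMSO and 940.4 (934.7 to 946.2) in H3R26C 5-Aza. Both H3R26C libraries lay above both H3WT libraries. The sum in H3R26C was 1.38-fold that of H3WT with DMSO (1.37 to 1.40) and 1.40-fold with 5-Aza (1.39 to 1.41). The ratio of 5-Aza to DMSO was smaller, at 1.06 (1.05 to 1.07) in H3WT and 1.08 (1.07 to 1.09) in H3R26C. These 4 comparisons reuse the same 4 libraries, and their values are given side by side for that reason.

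Members were counted as past the fold when the log2 ratio of CPM, with a pseudocount of 1 CPM, reached 1.5-fold, and the same was counted over all genes with at least 1 CPM in either library. With DMSO, 11 of 37 members were at least 1.5-fold higher in H3R26C, where 5.8% of all genes were, and 0 of 37 were lower, where 2.24% of all genes were. With 5-Aza, 18 of 37 were higher against 11.2% of all genes, and 0 were lower against 8.67%. The median member had a log2 ratio of 0.47 with DMSO and 0.55 with 5-Aza, while the median over all genes was 0.03 and -0.02. In each of these comparisons 36 of 37 members lay above 0, and Ubr7 was the 1 below it. Of all genes, 6877 of 12250 lay above 0 with DMSO and 6168 of 13010 with 5-Aza. For 5-Aza against DMSO in H3WT, 1 member was higher (all genes 9.12%) and 1 was lower (all genes 1.85%), and in H3R26C 3 were higher (all genes 14.9%) and 0 lower (all genes 10.2%). The median member was at 0.13 in both genotypes, and the median over all genes was at 0.04 in H3WT and -0.02 in H3R26C. Above 0 lay 26 of 37 members in each genotype, beside 7101 of 12622 of all genes in H3WT and 6206 of 12974 in H3R26C. The plot of levels by library shows the members in the order of the following paragraphs.

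**Figure D1:**
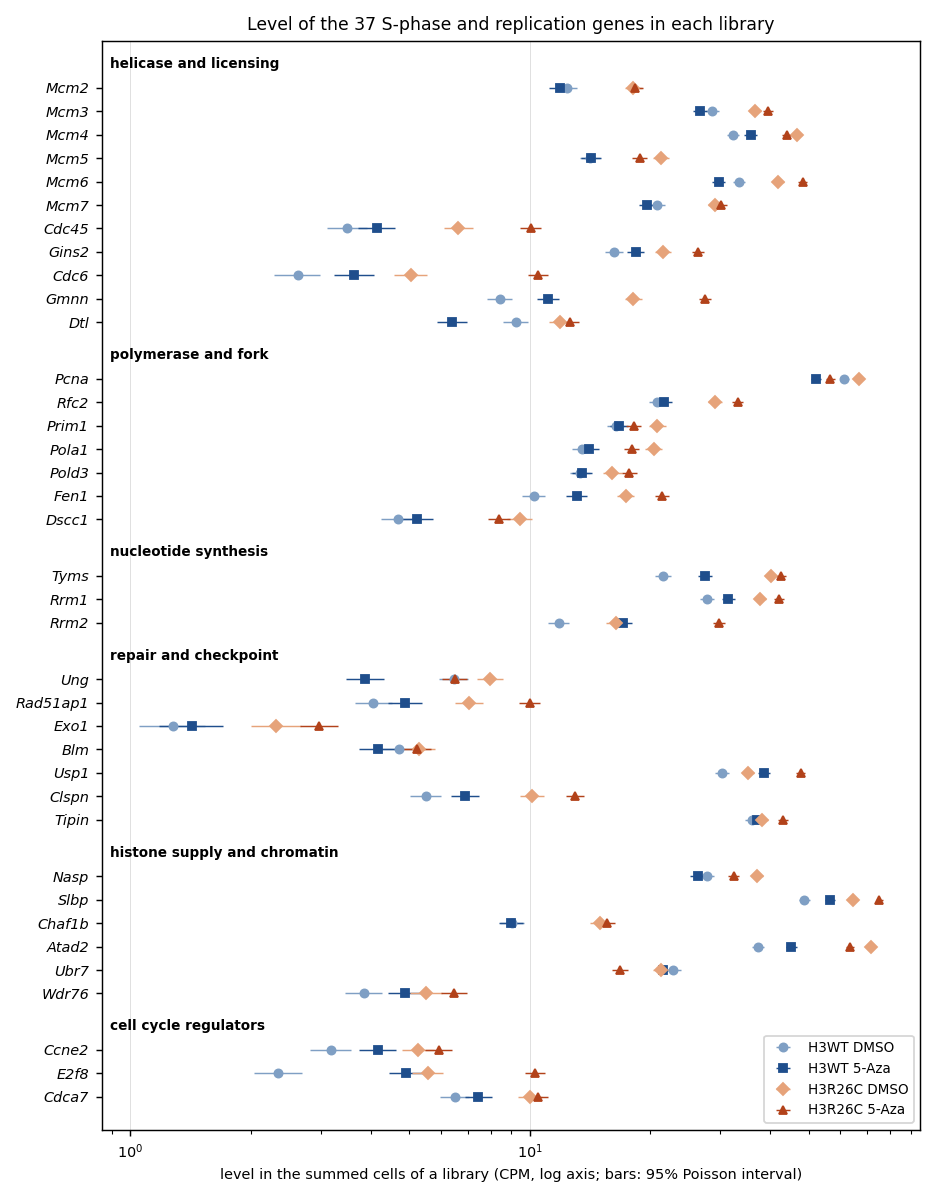
Level of each of the 37 genes in the 4 libraries, as CPM of the summed kept cells on a log axis, grouped by role, with 95% Poisson intervals as bars. Orange symbols (H3R26C) lie to the right of the blue symbol (H3WT) of the same treatment for 36 of the 37 genes, with Ubr7 as the reverse and Pcna, Tipin and Blm close together.

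Helicase and licensing genes (11 members: Mcm2 to Mcm7, Cdc45, Gins2, Cdc6, Gmnn and Dtl) summed to 181.9 CPM in H3WT DMSO, 181.8 in H3WT 5-Aza, 257.4 in H3R26C DMSO and 286.5 in H3R26C 5-Aza. The ratio of H3R26C to H3WT was 1.42 (1.39 to 1.44) with DMSO and 1.58 (1.55 to 1.61) with 5-Aza. Of the 11, 3 and 7 were past the fold upward, against 5.8% and 11.2% of all genes. Cdc6, the loader of the helicase, had 2.62 CPM in H3WT DMSO, 3.64 in H3WT 5-Aza, 5.03 in H3R26C DMSO and 10.5 in H3R26C 5-Aza. It was the member with the widest genotype ratio under 5-Aza, 2.88 (2.54 to 3.28), and with the widest 5-Aza ratio in H3R26C, 2.08 (1.86 to 2.33). Gmnn codes for geminin, which holds Cdt1 inactive from S phase to mitosis so that origins fire once. Its level ran 8.43, 11.1, 18.2 and 27.5 CPM over H3WT DMSO, H3WT 5-Aza, H3R26C DMSO and H3R26C 5-Aza, the same order of libraries as for Cdc6, and its genotype ratio was 2.16 (1.98 to 2.36) with DMSO and 2.47 (2.29 to 2.66) with 5-Aza. Cdc45, the helicase activator, followed that order too, at 3.49, 4.15, 6.63 and 10.1 CPM.

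The hexamer subunits Mcm2 to Mcm7 differed less, with genotype ratios from 1.25 for Mcm6 to 1.51 for Mcm5 with DMSO and from 1.24 for Mcm4 to 1.62 for Mcm6 with 5-Aza. Mcm5 had 14.2 CPM in H3WT DMSO, 14.2 in H3WT 5-Aza, 21.3 in H3R26C DMSO and 18.9 in H3R26C 5-Aza. Mcm4 had 32.3, 35.8, 46.6 and 44.2 CPM in the same order. Both were highest in H3R26C DMSO, and both had their H3R26C libraries above their H3WT libraries. Dtl, which with the ubiquitin ligase CRL4 marks Cdt1 and Cdkn1a for destruction in S phase, was lowest in H3WT 5-Aza: it had 9.22 CPM in H3WT DMSO, 6.39 in H3WT 5-Aza, 11.9 in H3R26C DMSO and 12.6 in H3R26C 5-Aza. Its ratio of 5-Aza to DMSO was 0.693 (0.620 to 0.774) in H3WT and 1.06 (0.973 to 1.15) in H3R26C, and the difference between these ratios was not tested.

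Polymerase and fork genes (Pcna, Rfc2, Prim1, Pola1, Pold3, Fen1 and Dscc1) summed to 140.6, 136.6, 180.4 and 173.7 CPM in H3WT DMSO, H3WT 5-Aza, H3R26C DMSO and H3R26C 5-Aza. Their sum was 1.28-fold higher in H3R26C with DMSO (1.25 to 1.31) and 1.27-fold with 5-Aza (1.24 to 1.30), while 5-Aza libraries lay slightly below DMSO libraries, at 0.972 (0.947 to 0.997) and 0.963 (0.942 to 0.984). Pcna, the sliding clamp, was the lowest of the 7 by this ratio: it had 61.5 CPM in H3WT DMSO, 52.2 in H3WT 5-Aza, 66.9 in H3R26C DMSO and 56.7 in H3R26C 5-Aza, and its 5-Aza ratio was 0.849 (0.815 to 0.884) and 0.847 (0.817 to 0.878). Its genotype ratio was 1.09 (1.05 to 1.13) with DMSO and 1.09 (1.04 to 1.13) with 5-Aza, near the bottom of the list. Prim1, the primase subunit, had 16.4, 16.7, 20.9 and 18.2 CPM and a genotype ratio of 1.09 (1.02 to 1.17) with 5-Aza.

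Fen1, the flap nuclease that trims Okazaki fragments, had 10.2 CPM in H3WT DMSO, 13.1 in H3WT 5-Aza, 17.4 in H3R26C DMSO and 21.4 in H3R26C 5-Aza. Dscc1, part of a clamp loader used in sister chromatid cohesion, had 4.69, 5.22, 9.45 and 8.38 CPM in the same order. Both genes were past the fold between genotypes, Fen1 at 1.70 (1.56 to 1.85) and Dscc1 at 2.02 (1.79 to 2.28) with DMSO.

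The 3 nucleotide synthesis genes were all higher with 5-Aza than with DMSO in both genotypes and higher in H3R26C than in H3WT. Tyms, thymidylate synthase, had 21.6 CPM in H3WT DMSO, 27.5 in H3WT 5-Aza, 40.3 in H3R26C DMSO and 42.7 in H3R26C 5-Aza. Rrm1, the large subunit of ribonucleotide reductase, which is also held outside S phase, had 27.8, 31.5, 37.9 and 42.3 CPM. Rrm2, the small subunit, whose protein is made for S phase, had 11.8, 17.1, 16.4 and 29.8 CPM. For Rrm2 the middle pair, H3WT 5-Aza and H3R26C DMSO, lay within each other's intervals of counting error. For Rrm2 the ratio of 5-Aza to DMSO was 1.45 (1.33 to 1.57) in H3WT and 1.82 (1.70 to 1.93) in H3R26C, and for Rrm1 it was 1.13 (1.07 to 1.2) and 1.12 (1.07 to 1.17).

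Repair and checkpoint genes (Ung, Rad51ap1, Exo1, Blm, Usp1, Clspn and Tipin) summed to 88.3 CPM in H3WT DMSO, 96.9 in H3WT 5-Aza, 106.1 in H3R26C DMSO and 128.5 in H3R26C 5-Aza. Ung, the glycosylase that cuts uracil out of DNA, was the member furthest below DMSO with 5-Aza in H3WT: it had 6.46 CPM in H3WT DMSO, 3.88 in H3WT 5-Aza, 7.97 in H3R26C DMSO and 6.49 in H3R26C 5-Aza. The ratio of 5-Aza to DMSO was 0.600 (0.522 to 0.689) in H3WT and 0.815 (0.732 to 0.907) in H3R26C. Rad51ap1 went the other way, at 4.06, 4.88, 7.05 and 10.0 CPM, with a genotype ratio of 1.74 (1.52 to 1.99) with DMSO and 2.05 (1.83 to 2.30) with 5-Aza. Clspn, the adaptor that lets the stalled fork switch on Chk1, had 5.49, 6.89, 10.1 and 13.0 CPM. Tipin, of the fork protection complex, was nearly level across libraries, at 36.0, 37.1, 38.1 and 43.1 CPM.

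Histone supply and chromatin genes (Nasp, Slbp, Chaf1b, Atad2, Ubr7 and Wdr76) summed to 149.6, 163.6, 215.2 and 210.2 CPM in H3WT DMSO, H3WT 5-Aza, H3R26C DMSO and H3R26C 5-Aza. Atad2, a bromodomain ATPase, had 37.3 CPM in H3WT DMSO, 45.3 in H3WT 5-Aza, 71.6 in H3R26C DMSO and 63.5 in H3R26C 5-Aza, so its genotype ratio was 1.92 (1.84 to 2.00) with DMSO and 1.40 (1.35 to 1.46) with 5-Aza. Slbp binds the stem loop at the end of replication-dependent histone mRNAs and is needed for their processing. It was highest in both H3R26C libraries, with 48.8, 56.5, 64.6 and 75.2 CPM. Chaf1b, of the factor that loads H3 and H4 behind the fork, had 9.04, 8.99, 15 and 15.6 CPM.

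Ubr7, a ubiquitin ligase with a PHD finger that has been linked to histone H2B, was the exception of the list, with 22.9 CPM in H3WT DMSO, 21.6 in H3WT 5-Aza, 21.3 in H3R26C DMSO and 16.8 in H3R26C 5-Aza. Its genotype ratio was 0.932 (0.874 to 0.994) with DMSO and 0.780 (0.731 to 0.832) with 5-Aza. Wdr76, a WD repeat protein, had 3.84, 4.87, 5.51 and 6.46 CPM.

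The 3 cell cycle regulators had the largest ratio between genotypes of the role groups with DMSO, 1.73 (1.6 to 1.87) for their sum, and 1.62 (1.52 to 1.73) with 5-Aza. E2f8, a repressor of the E2F family that shuts these genes down late in S phase, had 2.35 CPM in H3WT DMSO, 4.90 in H3WT 5-Aza, 5.56 in H3R26C DMSO and 10.3 in H3R26C 5-Aza. It was about as far apart between treatments, at 2.09 (1.76 to 2.48) in H3WT and 1.86 (1.66 to 2.07) in H3R26C, as between genotypes, at 2.37 (2.00 to 2.80) with DMSO and 2.10 (1.88 to 2.36) with 5-Aza. Ccne2, the cyclin that drives CDK2 into S phase, had 3.18, 4.16, 5.26 and 5.93 CPM, and Cdca7, a target of Myc and E2F that recruits the chromatin remodeller Hells, had 6.50, 7.45, 10.0 and 10.5 CPM.

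A level summed over a library does not say whether more cells use these genes or each cell uses them more, so the cells were counted next. Each cell was thinned to 5000 UMIs, which removes the gap in depth, and a cell was counted as expressing many members when it had a UMI of at least 10 of the 37. This held for 99 of 3710 cells in H3WT DMSO (2.67%, 2.17 to 3.24), 215 of 5993 in H3WT 5-Aza (3.59%, 3.13 to 4.09), 284 of 4727 in H3R26C DMSO (6.01%, 5.35 to 6.72) and 602 of 7619 in H3R26C 5-Aza (7.90%, 7.31 to 8.53). The shares rank the libraries as the summed CPM does. The share in H3R26C was 2.25 times that in H3WT with DMSO (1.80 to 2.82) and 2.20 times with 5-Aza (1.89 to 2.56), and 5-Aza over DMSO gave 1.34 (1.06 to 1.70) in H3WT and 1.32 (1.15 to 1.51) in H3R26C. Without thinning the shares were 19.3%, 10.2%, 16.0% and 20.4%, which puts H3WT DMSO, the deepest library, above H3WT 5-Aza and H3R26C DMSO and against the order of the CPM, so the thinned shares alone are compared.

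The median cell had 2 of the 37 members after thinning in every library, and the 95th percentile was 5 in H3WT DMSO, 7 in H3WT 5-Aza, 11 in H3R26C DMSO and 12 in H3R26C 5-Aza. At the far end the order of libraries changed: 20 or more members were seen in 0.539% (0.330 to 0.831), 0.617% (0.435 to 0.850), 0.973% (0.713 to 1.30) and 0.604% (0.442 to 0.805) of cells, in the order H3WT DMSO, H3WT 5-Aza, H3R26C DMSO and H3R26C 5-Aza. H3R26C 5-Aza, which had the largest share of cells at 10 members, lay between the H3WT libraries at 20, within counting error of both, while H3R26C DMSO had the highest share, as the plot of cells by number of genes shows.

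**Figure D2:**
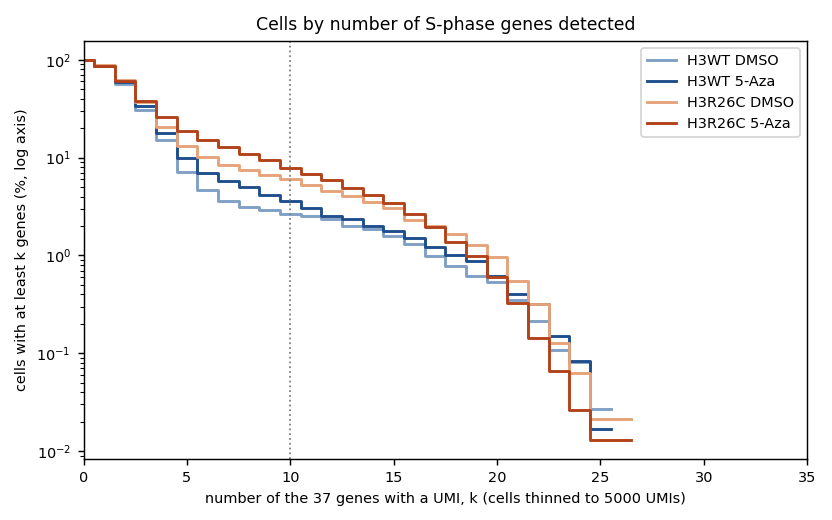
Percent of cells (log axis) with a UMI of at least k of the 37 genes, for each k, after thinning every cell to 5000 UMIs, with 1 line per library and a dotted line at 10 genes. At 10 genes the lines are ordered from 2.67% in H3WT DMSO to 7.90% in H3R26C 5-Aza, and at 20 genes H3R26C DMSO is highest at 0.973% and the other 3 lie between 0.539% and 0.617%.

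Cells with many members held 34.8% of all member UMIs in H3WT DMSO, 34.5% in H3WT 5-Aza, 47.0% in H3R26C DMSO and 45.5% in H3R26C 5-Aza, with 4.33%, 4.97%, 9.22% and 10.6% of all UMIs. Their member level was 5096 CPM in H3WT DMSO, 4670 in H3WT 5-Aza, 4460 in H3R26C DMSO and 4034 in H3R26C 5-Aza, so per cell it was not higher in the libraries that had more such cells. In the cells with 0 to 4 members, which were 81.1% to 92.8% of a library, the level was 392.3, 389.7, 409.1 and 394.9 CPM. The cap of 4 members itself bounds this level. In all cells without many members it was 431.65, 462.5, 510.5 and 573.5 CPM, which rose in the order of the library sums. These values are a description, since the members themselves sorted the cells. Cells with many members were deeper than the rest of their library, with median UMIs of 37048, 19412, 27358.5 and 19093.5, and had less mitochondrial RNA, with medians of 1.76% to 2.45% of UMIs.

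Cells were also sorted by a list that shares no gene with the members: 62 other replication genes, such as the origin recognition subunits, the replication protein A subunits and Tk1. In cells with at least 5 of these 62 after thinning, which were 28% and 35.1% of the H3WT cells with DMSO and with 5-Aza and 33.6% and 43.6% of the H3R26C cells, the members stood at 1206, 1158, 1644 and 1558 CPM. In the remaining cells they stood at 384.4, 383.6, 408.0 and 370.2 CPM. The genotype ratio was 1.36 and 1.35 inside these cells with DMSO and with 5-Aza, and 1.06 and 0.965 outside them. These are ratios of sums, and single members outside went both ways with 5-Aza. From H3WT to H3R26C, Cdc6 rose from 0.963 to 3.58 CPM and Gmnn from 3.02 to 6.62. Mcm3 fell from 12.4 to 7.87 CPM and Ung from 2.77 to 1.29. The cut of 5 genes takes in many cells that do not have many members. With a cut of 10 genes, chosen after these values were seen, the cells inside were 3.64%, 4.94%, 7.59% and 11.9% of the libraries, the genotype ratio inside them was 0.920 with DMSO and 0.840 with 5-Aza, and outside them it was 1.14 in both. The genotype ratio inside such cells thus changed direction with the cut, and whether the members differ per cell was not tested. At either cut such cells made up a larger share of the H3R26C library than of the H3WT library of the same treatment.

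Members differed in how far they were restricted to such cells. The level in cells with at least 5 of the other replication genes over that in the rest, as a geometric mean of the 4 libraries, was 32.8-fold for Clspn, 29.8 for Exo1, 24.6 for Rad51ap1, 19.8 for Mcm5 and 14.3 for Ccne2. It was 2.30-fold for Pcna, 2.01 for Slbp, 1.88 for Tipin, 1.74 for Wdr76 and 1.17 for Ubr7. Less restricted members tended to have the smaller genotype ratio: across the 37 members the Pearson correlation of the log2 restriction and the log2 genotype ratio was 0.66 with DMSO and 0.67 with 5-Aza. For 5-Aza over DMSO it was 0.36 in H3WT and 0.44 in H3R26C. These are descriptions across genes of the same libraries, which are not independent of one another.

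**Figure D3:**
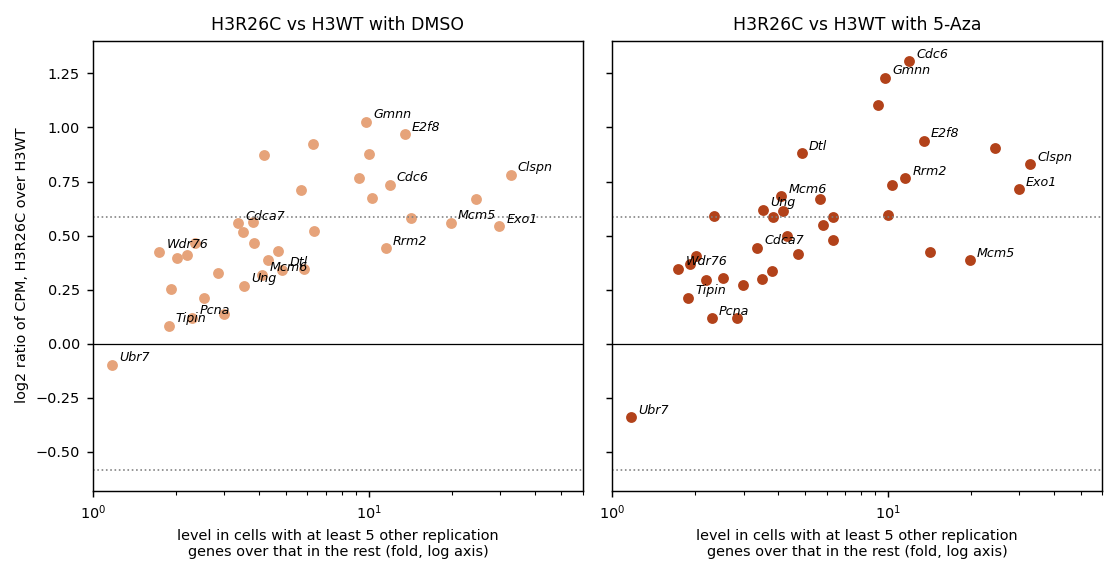
Log2 ratio of CPM between H3R26C and H3WT for each of the 37 genes (vertical axis), with DMSO on the left and 5-Aza on the right, against the fold by which the gene is higher in cells with at least 5 other replication genes (log axis). Dotted lines mark 1.5-fold; Ubr7, at 1.17-fold on the horizontal axis, is the 1 gene below 0 in both panels, and genes above 5-fold lie between 0.35 and 1.31.

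Members also differed in how they varied with one another from cell to cell. The correlation of a member's log-normalised level with the number of other members detected, as a mean of the 4 libraries over thinned cells, was highest for Mcm5 (0.55), Atad2 (0.54) and Rrm2 (0.50) and lowest for Ubr7 (0.06), Wdr76 (0.11) and Pold3 (0.14). Sparse counts can hold such a correlation down, and their part was not tested. Wdr76 had a UMI in 2.02% to 2.93% of the thinned cells of a library, and Ubr7 in 7.89% to 10.7%. Ubr7 came last here although its window holds an E2F form, and Rrm2 came near the top with none of the 4 forms in its window. Among 9647 other genes with a UMI in at least 2% of the cells of each library, the most alike were Tk1 (0.67), Pclaf (0.64), Uhrf1 (0.58), Top2a (0.57), Tcf19 (0.52), Hist1h1b (0.51), Hells (0.51), Birc5 (0.51), Mki67 (0.50) and Cdk1 (0.50). Tk1 is thymidine kinase, Pclaf the Pcna-associated factor and Uhrf1 the protein that brings Dnmt1 to replicated DNA. The least alike were Cst3 (-0.29), Itm2b (-0.27) and Col3a1 (-0.25), of which Col3a1 codes for a collagen chain and is among the mesenchymal markers used here.

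As a sum, the rest of the replication machinery differed less between genotypes than the members and more between treatments. By the median gene it did not differ more between treatments. Its median log2 ratio of 5-Aza to DMSO was 0.13 in H3WT and 0.11 in H3R26C, beside 0.13 in both for the members. The 62 other replication genes summed to 957.1 CPM in H3WT DMSO, 1082 in H3WT 5-Aza, 1196 in H3R26C DMSO and 1394 in H3R26C 5-Aza. The genotype ratio of this sum was 1.25 (1.24 to 1.26) with DMSO and 1.29 (1.28 to 1.30) with 5-Aza, and the ratio of 5-Aza to DMSO was 1.13 (1.12 to 1.14) in H3WT and 1.17 (1.16 to 1.17) in H3R26C. In H3R26C against H3WT, 12 of 62 were past the fold upward with DMSO (all genes 5.8%) and 21 of 62 with 5-Aza (all genes 11.2%). In either, 0 were past it downward (all genes 2.24% and 8.67%), and the median log2 ratios were 0.35 and 0.38. Tk1 had 24.6, 30.6, 59.0 and 67.4 CPM, with a genotype ratio of 2.40 (2.28 to 2.53) with DMSO, and Timeless, the partner of Tipin, had 4.28, 6.31, 9.39 and 11.7 CPM. Dut, the enzyme that keeps uracil out of DNA by cleaving dUTP, differed by treatment instead: it had 61.5 CPM in H3WT DMSO, 96.9 in H3WT 5-Aza, 63.0 in H3R26C DMSO and 93.7 in H3R26C 5-Aza. Its 5-Aza ratio was 1.57 (1.52 to 1.63) in H3WT and 1.49 (1.44 to 1.54) in H3R26C, whereas Ung, which removes uracil from DNA, was below DMSO in both. The polymerase subunit Pold4 had 54.2, 74.5, 57.4 and 113 CPM.

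Regulators of the G1 to S step were close to level as a sum. The 25 genes summed to 1338, 1286, 1344 and 1275 CPM in H3WT DMSO, H3WT 5-Aza, H3R26C DMSO and H3R26C 5-Aza. Cdk4 alone held 477, 426, 493 and 364 CPM of these sums. The median gene had a log2 ratio of H3R26C to H3WT of 0.16 with DMSO and 0.21 with 5-Aza. In H3R26C against H3WT with DMSO, 3 of 24 tested were past the fold upward (all genes 5.8%) and 0 downward (all genes 2.24%). With 5-Aza, 6 of 25 were past it upward (all genes 11.2%) and 2 of 25 downward (all genes 8.67%). Ccna2, the S-phase cyclin A, had 12.7, 21.9, 25.8 and 33.8 CPM, and the repressor E2f7 had 1.70, 2.43, 3.52 and 5.51 CPM. Cyclin D2 (Ccnd2) was lowest in H3R26C 5-Aza, with 223, 156, 159 and 77.4 CPM, and so was Rbl2, a retinoblastoma family gene of resting cells, with 40.6, 35.5, 32.2 and 21.3 CPM. Of the 7 CDK inhibitors 4 passed the minimum level. Cdkn1b (p27) had 139, 105, 146 and 59.3 CPM, with a 5-Aza ratio of 0.757 (0.737 to 0.779) in H3WT and 0.406 (0.394 to 0.419) in H3R26C. Cdkn1a (p21) was higher with 5-Aza in both genotypes, with 219, 359, 166 and 317 CPM.

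The 54 G2/M genes were further apart between treatments than the members. They summed to 1682 CPM in H3WT DMSO, 2157 in H3WT 5-Aza, 2332 in H3R26C DMSO and 3142 in H3R26C 5-Aza, so that 5-Aza over DMSO was 1.28 (1.27 to 1.29) in H3WT and 1.35 (1.34 to 1.36) in H3R26C, beside 1.06 and 1.08 for the members. At least 1.5-fold higher with 5-Aza were 32 of 54 in H3WT (all genes 9.12%) and 23 of 54 in H3R26C (all genes 14.9%). In H3R26C against H3WT, 37 of 54 were higher with DMSO (all genes 5.8%) and 30 of 54 with 5-Aza (all genes 11.2%). Cells with at least 10 G2/M genes after thinning were 4.31%, 6.99%, 8.76% and 16.4% of the libraries. Among the cells with many members, 77.8% (68.3 to 85.5) in H3WT DMSO, 75.8% (69.5 to 81.4) in H3WT 5-Aza, 74.6% (69.2 to 79.6) in H3R26C DMSO and 69.4% (65.6 to 73.1) in H3R26C 5-Aza also had many G2/M genes.

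Cells with many G2/M genes and without many members were 2.24% and 4.27% of the H3WT cells with DMSO and with 5-Aza and 4.27% and 10.9% of the H3R26C cells. The ratio of 5-Aza to DMSO for these cells was 1.91 (1.5 to 2.44) in H3WT and 2.56 (2.20 to 2.97) in H3R26C. In H3R26C the share of cells with many members was 1.89 percentage points higher with 5-Aza than with DMSO, and the share with many G2/M genes alone was 6.66 points higher. In H3WT the differences were 0.919 and 2.03 points.

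As a sum, the replication-dependent histone genes did not follow the members. The 67 genes summed to 1094 CPM in H3WT DMSO, 953.2 in H3WT 5-Aza, 979.8 in H3R26C DMSO and 658.9 in H3R26C 5-Aza, the lowest value in the library with the highest member level. Within cells with many members they stood at 2475, 3108, 3061 and 1854 CPM, against 1032, 840.5, 768.5 and 517.2 CPM in the other cells of each library, so they were higher in cells with many members in each of the 4 libraries. Histone genes were not alike: Hist1h2ap had 3.99, 4.69, 11.3 and 13.1 CPM, while Hist1h4i had 257, 196, 125 and 54.6 CPM. Hist1h4i alone thus weighed heavily in the sums over the 67 genes and in their differences between libraries. The median log2 ratio of H3R26C to H3WT was 0.16 with DMSO and -0.34 with 5-Aza. With DMSO, 6 of 40 tested were at least 1.5-fold higher (all genes 5.8%) and 6 lower (all genes 2.24%). With 5-Aza, 3 of 41 were higher (all genes 11.2%) and 16 lower (all genes 8.67%). Most replication-dependent histone mRNAs carry no poly(A) tail and these libraries capture poly(A), and near-identical copies share reads, so their single levels are uncertain.

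In muscle-like cells, in which RNA of 37 sarcomeric genes made up at least 1% of UMIs, the members were lower than in the other cells of the same library. There were 166 such cells in H3WT 5-Aza, 225 in H3R26C 5-Aza and 0 in both DMSO libraries (of 3710 and 4727 cells, which allows shares of up to 0.0809% and 0.0635%). They also held 5788 and 6673 CPM of 12 further skeletal muscle genes, against 86.8 and 134.8 CPM in the other cells, and less of the mesenchymal markers. The members summed to 348.5 CPM (326.0 to 372.2) in muscle-like cells against 681.6 (676.0 to 687.3) in the other cells of H3WT 5-Aza, a ratio of 0.511 (0.478 to 0.546). In H3R26C 5-Aza the values were 363.8 CPM (346.4 to 381.8) against 965.1 (959.2 to 971.0), a ratio of 0.377 (0.359 to 0.396). The summed levels within muscle-like cells thus lay close together in the genotypes, and the sums of the other cells were apart.

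In H3WT 5-Aza 22 of 37 members were at least 1.5-fold lower in muscle-like cells, where 31.3% of all genes were, and 1 was higher, where 18.6% were. In H3R26C 5-Aza 33 of 37 were lower against 35.1% of all genes, and 0 were higher against 14.0%. The median member was at -0.97 and -1.42 on the log2 scale and the median gene at -0.21 and -0.31. The G2/M genes had a sum ratio of 0.672 (0.651 to 0.694) in H3WT and 0.494 (0.482 to 0.505) in H3R26C, and the other replication genes 0.652 (0.622 to 0.683) and 0.562 (0.544 to 0.581). By the median gene the G2/M list lay below the members, at -2.04 in H3WT and -2.12 in H3R26C. Of its 54 genes 43 were at least 1.5-fold lower in H3WT (all genes 31.3%) and 47 in H3R26C (all genes 35.1%). The median of the other replication genes was -0.77 and -1.03. Cdkn1a was higher in muscle-like cells, at 2856 against 280.5 CPM in H3WT and 7.32-fold in H3R26C, and Rb1 was 5.60-fold and 3.98-fold higher. Their lists did not rise as a whole. Of 5 CDK inhibitors tested, 2 were at least 1.5-fold higher and 3 lower in each library. Of 25 G1/S regulators, 5 were higher and 10 lower in H3WT, and 4 and 14 in H3R26C. Over all genes, 18.6% were higher and 31.3% lower in H3WT, and 14.0% and 35.1% in H3R26C.

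Over bins of sarcomeric share the member level was lower at each step. In H3WT 5-Aza it was 688.2 CPM in cells with under 0.1% sarcomeric RNA, 633.8 from 0.1% to 0.3%, 623.5 from 0.3% to 1%, 415.5 from 1% to 5% and 296.5 from 5% to 20%. In H3R26C 5-Aza it was 993.3, 774.1, 643.1, 479.5 and 251.9 CPM over the same bins. The genotypes were apart in both bins under 0.3%, and their intervals overlapped in each of the 3 bins above it. The overlap was slight at 1% to 5%, with 378.6 to 454.9 in H3WT and 451.2 to 509.1 in H3R26C. It was slight too at 5% to 20%, with 268.9 to 326.1 and 231.8 to 273.2. H3R26C was the higher at 1% to 5% and the lower at 5% to 20%. Overlap does not show that the genotypes were alike, and their ratio within bins was not tested. In H3WT the bins from 0.1% to 1% lay within each other's intervals.

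**Figure D4:**
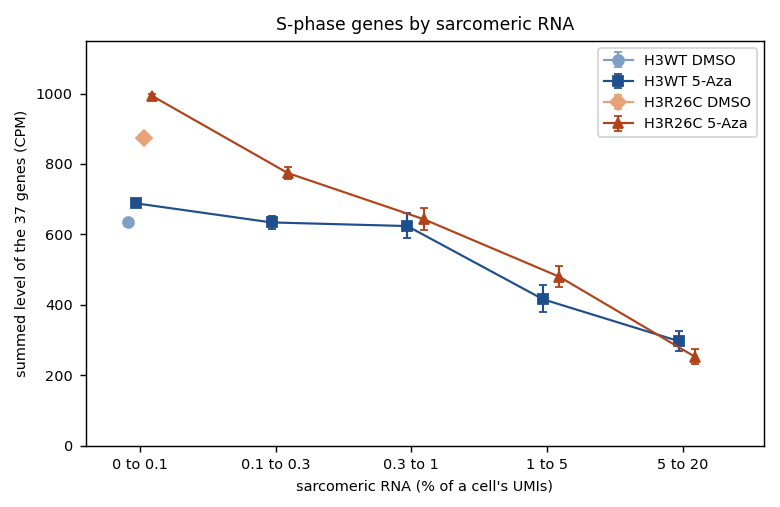
Summed level of the 37 genes (CPM, from 0) against the sarcomeric share of a cell's UMIs in bins, with 1 line per library and 95% Poisson intervals; DMSO libraries have cells in the first bin alone. The level in the 5-Aza libraries goes from 688.2 and 993.3 CPM in the first bin to 296.5 and 251.9 CPM at 5% to 20%.

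Cells with many members were 0 of 166 muscle-like cells in H3WT 5-Aza, which allows a share of up to 1.81%, against 3.69% (3.22 to 4.21) of the other cells. In H3R26C 5-Aza they were 3 of 225 (1.33%, 0.276 to 3.85) against 8.10% (7.49 to 8.75). The 3 cells had 16, 13 and 12 members, 12520, 14105 and 24081 UMIs and 1.05% to 3.01% sarcomeric RNA, beside a muscle-like median of 18389 UMIs. Doublets were not removed, and whether these cells are doublets was not tested. Of cells with a Myog UMI and under 1% sarcomeric RNA, 7 of 176 had many members in H3WT 5-Aza (3.98%, 1.61 to 8.02). In H3R26C 5-Aza 46 of 416 did (11.1%, 8.21 to 14.5). The shares among all cells under 1% sarcomeric RNA were 3.69% and 8.10%. The interval of these Myog cells overlapped that of the muscle-like cells in H3WT 5-Aza and lay above it in H3R26C 5-Aza. Myog codes for myogenin, a transcription factor of early muscle differentiation.

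The members were not lost evenly. Among those nearest to absence in muscle-like cells were Mcm5, Dscc1, Clspn, Exo1 and Rad51ap1. Mcm5 had 1 UMI in H3WT 5-Aza, a ratio of 0.0267 (0.000674 to 0.149), and a ratio of 0.101 (0.0462 to 0.192) in H3R26C 5-Aza. Dscc1 had 2 and 3 UMIs, with ratios of 0.146 (0.0176 to 0.530) and 0.0759 (0.0156 to 0.222). Clspn had 1 and 12 UMIs, with ratios of 0.0551 (0.00139 to 0.308) and 0.196 (0.101 to 0.344), and Exo1 had 0 and 1. Rad51ap1 had 2 and 8 UMIs, with ratios of 0.156 (0.0188 to 0.567) and 0.170 (0.0733 to 0.336). Mcm5, Clspn, Exo1 and Rad51ap1 are among the 5 most restricted members given above. Tyms had ratios of 0.236 (0.137 to 0.378) and 0.195 (0.138 to 0.267), Gins2 0.249 (0.128 to 0.436) and 0.169 (0.104 to 0.259), and Chaf1b 0.212 (0.0687 to 0.497) and 0.191 (0.104 to 0.321). Tyms acts in nucleotide supply, Gins2 in helicase activation and Chaf1b in nucleosome assembly, and their intervals lay below 1 in both libraries. Some other members of the same role groups differed. Among them, Cdc45, Rrm1, Rrm2 and Nasp each had an interval that held 1 in at least 1 library.

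E2f8 stood out at the other end. It had 13.3 CPM in muscle-like cells and 4.63 in the other cells of H3WT 5-Aza, a ratio of 2.87 (1.96 to 4.08), and 12.3 against 10.2 CPM in H3R26C 5-Aza, a ratio of 1.21 (0.906 to 1.58). It was the 1 member at least 1.5-fold higher in muscle-like cells of either library. Both subunits of ribonucleotide reductase had intervals that held 1 in H3WT and lay below 1 in H3R26C: Rrm2 had 21.9 against 17.0 CPM in H3WT (1.29, 0.969 to 1.68) and 21.6 against 30.1 in H3R26C (0.716, 0.580 to 0.876), and Rrm1 had 29.3 against 31.5 CPM (0.929, 0.728 to 1.17) and 27.8 against 42.9 (0.647, 0.538 to 0.773). Nasp, a histone chaperone that also serves non-dividing cells, had ratios of 1.01 (0.781 to 1.28) and 0.863 (0.718 to 1.03). Cdc45 had ratios of 0.652 (0.260 to 1.36) and 0.827 (0.582 to 1.14). Among other E2F genes, E2f2 was 11.5-fold (7.46 to 17.2) higher in muscle-like cells of H3WT 5-Aza and 8.39-fold (6.77 to 10.4) in H3R26C 5-Aza.

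E2f8 and Rrm2 thus had nearly the same CPM in muscle-like cells of both genotypes, as did Slbp (20.7 and 20.7 CPM) and Pcna (21.1 and 21.2 CPM). The other cells of the genotypes differed for E2f8, Rrm2 and Slbp, and less so for Pcna (53.1 and 58.2 CPM). Not all members were alike in this. In muscle-like cells of H3WT 5-Aza and H3R26C 5-Aza, Mcm6 had 9.77 and 20.3 CPM and Gmnn 3.91 and 9.92. Mcm4 went the other way at 16.4 and 9.69 CPM, as did Prim1 at 9.77 and 3.53. The clamp Pcna, with a UMI in 12.0% and 10.2% of thinned muscle-like cells against 21.2% and 19.4% of the other cells, was lowered without being lost. Median depths before thinning were 13265 and 18389 UMIs in muscle-like cells and 13148 and 13061 in the others.

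**Figure D5:**
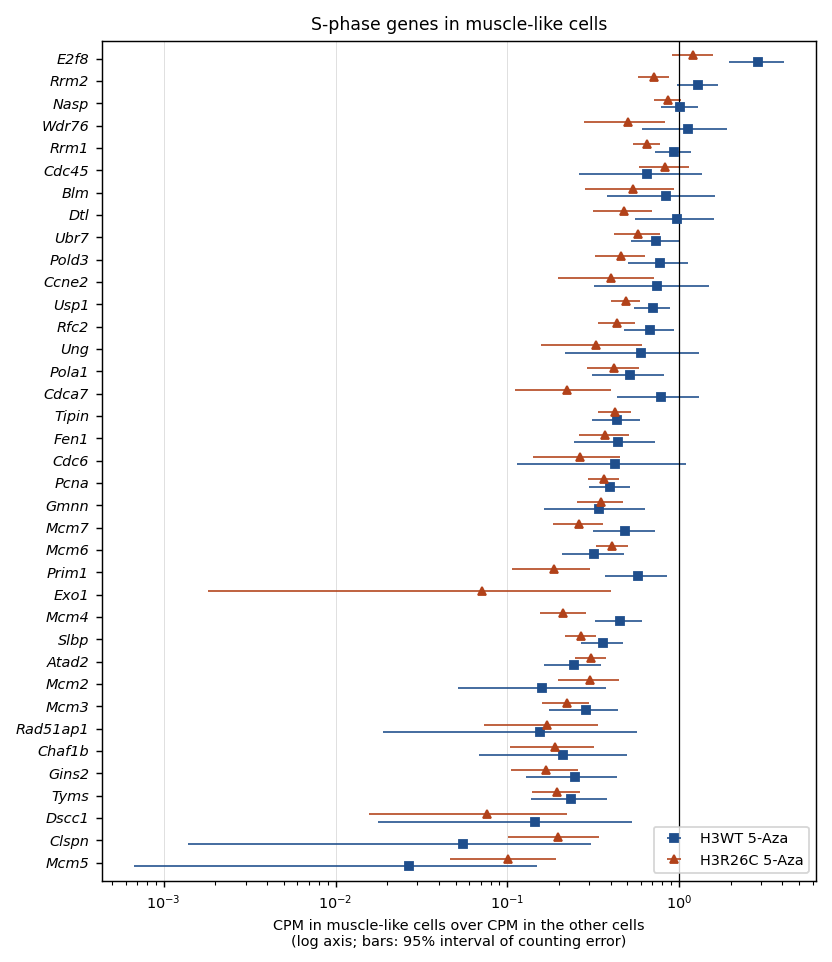
Ratio of CPM in muscle-like cells to that in the other cells of the same library for each of the 37 genes (log axis), in H3WT 5-Aza (squares) and H3R26C 5-Aza (triangles), with 95% intervals of counting error; Exo1 has no UMI in muscle-like cells of H3WT and so no square. E2f8 lies above 1 at the top, Nasp lies near 1 in both libraries, Rrm2 and Rrm1 lie near 1 in H3WT and below it in H3R26C, and Mcm5, Clspn and Dscc1 are at the bottom.

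Adipocyte-like cells were taken as those in which 3 or more of the 8 adipocyte markers had a UMI once thinned. Many members were seen in 0 of 57 and 3 of 195 such cells of H3WT with DMSO and with 5-Aza and in 1 of 60 and 1 of 88 of H3R26C. These numbers are too few to set the libraries apart.

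The share of cells with many members was last compared between cells with and without a UMI of a few other genes within each library, with the genes chosen because earlier results of these data were known. With a UMI of Hmga2, an architectural factor of growing embryonic cells, the share was 36.5% against 2.19% in H3WT DMSO, 20% against 3.17% in H3WT 5-Aza, 32.9% against 4.59% in H3R26C DMSO and 19.0% against 5.53% in H3R26C 5-Aza. The ratio went from 16.7 (11.0 to 25.4) in H3WT DMSO to 3.44 (2.96 to 4.0) in H3R26C 5-Aza, where 1342 cells had an Hmga2 UMI against 52 to 237 in the other libraries. For cyclin D1 (Ccnd1) the ratio was 2.85 to 6.12 and for Cdkn1a 1.65 to 2.63, so the share was higher among cells with p21 RNA in all 4 libraries. For Cdkn1b it was 0.461 to 0.635 and for Ccnd2 0.467 to 0.656. Cells with a Cdkn1a, Ccnd1 or Hmga2 UMI were deeper than those without, by median UMIs before thinning. The gap was widest for Hmga2 in H3WT DMSO, at 34465.5 against 22363 UMIs. The part of depth in these shares beyond thinning was not tested.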

How the data were processed

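Single-cell RNA sequencing libraries (10x Genomics) were analysed for 4 conditions with 1 library each. The deposited files are matrices of UMI counts per gene and barcode, which the authors made with Cell Ranger (version 6 in the submitters' processing notes, 6.1.0 in the matrix header) against GRCm38, and the notes also name Seurat 4. The count of a gene is the number of distinct molecules assigned to it, as deposited and not normalised. Cells were filtered as in the report; no doublet caller was run. Counts were summed per library and scaled to CPM, with exact Poisson intervals. Ratios of CPM have exact conditional binomial intervals, shares have exact (Clopper-Pearson) binomial intervals and ratios of shares have Katz intervals, all at 95%. A count of 0 allows up to 3 counts. Cells were thinned without replacement to 5000 UMIs for shares. The scripts (Python 3.11.15, numpy 2.4.6, scipy 1.17.1, pandas 2.3.3) were tested on simulated data.

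Groups came from the sample titles. No test between conditions was made, since cells are not replicates. The members and lists were chosen with earlier results of these data known. Genes given in full are those with the highest and lowest 5-Aza or genotype ratio in each role group, and of other lists those with the largest ratios. Gene positions, where used, are of GRCm38. Alternatives changed the cell filter, scaling, pseudocount, fold, minimum level, number of members, thinning and sarcomeric minimum.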

Additional observations from a re-analysis of the deposited data

Results flagged for a closer look

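In 4 members the ratio of CPM between 5-Aza and DMSO lay on opposite sides of 1 in the genotypes, with both intervals of counting error away from 1; the difference between the genotypes was not tested, since each condition has 1 library. The ratio was 0.932 in H3WT and 1.08 in H3R26C for Mcm3, and 0.888 and 1.15 for Mcm6. It was 1.11 and 0.948 for Mcm4, and 1.22 and 0.888 for Atad2. None of these 8 ratios reached 1.5-fold. How many of all genes met the same rule was not counted, so the 4 are listed without a background and not read as an excess.

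The share of cells with many members, among cells with a Ly6a UMI over cells without one, was 3.59 (DMSO) and 1.64 (5-Aza) in H3WT, and 2.70 (DMSO) and 0.531 (5-Aza) in H3R26C. For the interferon-stimulated gene Ifi27l2a the same ratio was 2.68, 1.22, 2.24 and 0.642 in that order of libraries. Ly6a codes for the stem cell antigen Sca-1. In H3R26C 5-Aza 6655 of the cells had a Ly6a UMI after thinning, and 13.4% of the cells without one had many members against 7.11% of those with one. These differences between libraries were not tested, and the genes were chosen with earlier results known.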

How the results depend on the processing

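The log2 ratio of the summed members kept its direction in all 4 contrasts under the 5 alternatives. For 5-Aza over DMSO it went from 0.08 in H3WT to 0.14 with the stricter filter (10000 UMIs, 2500 genes, 10% mitochondrial), 0.11 without muscle-like cells, 0.14 as a mean of per-cell CPM and 0.053 with the median of all genes set to 0, and in H3R26C from 0.10 to 0.19, 0.14, 0.16 and 0.15, and to 0.081 with all barcodes. For H3R26C over H3WT it went from 0.46 with DMSO to 0.40 (per-cell mean) and 0.43 (median set to 0), and from 0.49 with 5-Aza to 0.52 (stricter filter), 0.50 (without muscle-like cells), 0.43 (per-cell mean) and 0.52 (median set to 0). The median of all genes was shifted by at most 0.05. Of members past the fold upward, the 11 with DMSO became 3 with a pseudocount of 5 CPM, 1 at 2-fold and 6 among genes with 10 CPM, and the 18 with 5-Aza became 9 and 3 under the first pair. For 5-Aza in H3R26C the 3 became 5 with the stricter filter, the per-cell mean or a pseudocount of 0.1 CPM and 0 at 2-fold. In H3WT the 1 upward became 2 with the stricter filter and the per-cell mean, and 0 with a pseudocount of 5 CPM, at 2-fold and at 10 CPM, where the 1 downward also became 0, as it did with the per-cell mean. The share of all genes past the fold was not counted under these alternatives. The changed counts thus do not show whether the members drew nearer to that share.

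Thinning decided the direction of the share of cells with many members. Without it, the log2 ratio of shares turned from 0.43 to -0.92 for 5-Aza in H3WT and from 1.17 to -0.28 for H3R26C over H3WT with DMSO, and the shares were 19.3%, 10.2%, 16.0% and 20.4% for H3WT DMSO, H3WT 5-Aza, H3R26C DMSO and H3R26C 5-Aza. Thinned to 10000 UMIs, which left out 3.15%, 21.4%, 5.94% and 23.7% of cells as too shallow, the shares were 4.17%, 7.5%, 9.78% and 17.9%, and the log2 ratio for 5-Aza became 0.84 in H3WT and 0.87 in H3R26C. With at least 5 members they were 7.2%, 9.81%, 13.1% and 18.9%, and with at least 15 they were 1.56%, 1.77%, 3.07% and 3.45%, where the 5-Aza log2 ratio in H3R26C became 0.17. With the stricter filter the 5-Aza libraries were at 4.17% and 9.57%, and that ratio became 0.62. With at least 10 of the other replication genes in place of 5, the log2 genotype ratio of the members inside such cells turned to -0.12 with DMSO and -0.25 with 5-Aza, and outside them it turned to 0.18 with 5-Aza, while the 5-Aza ratio outside in H3R26C turned to 0.075.

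In muscle-like cells the log2 ratio stayed below 0 under the 5 alternatives. It was -0.72 with a minimum of 0.5%, -1.20 with 5% and -0.85 as a per-cell mean in H3WT, where it was -0.97, and -1.16, -1.92 and -1.19 in H3R26C, where it was -1.41 and became -1.32 with sarcomeric UMIs left out of the total. No paired analysis was possible because there was 1 library per condition. With 1 library a condition, the spread between cultures is unknown, and members under about 5 CPM rest on few UMIs per cell.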
